A study of Macaca mulatta with 39 samples.

Results

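FAP, NT5E, TGFBI, CCDC80, SRGN, FGL2 and KLK8 encode proteins that mesenchymal cells carry on their surface or secrete, and their signals were described here in rhesus macaque embryonic stem cells (ESCs) and fibroblasts. They are 7 of the 14132 genes that could be named on the array, and all 16 of their probe sets, of 52024 tested, are reported. The 7 genes were picked from earlier results of these same arrays because their signals in ESCs lay far below those in fibroblasts. Differences between ESCs and fibroblasts are therefore given as descriptions with no test. Skin levels weighed in the choice of NT5E, FGL2 and KLK8, and teratoma levels in that of SRGN and TGFBI, so the comparison of the fibroblast kinds is not fully independent of the choice either.

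Fibroblasts build and remodel the extracellular matrix, and mesenchymal stromal cells grown in culture are commonly recognised by a set of surface proteins that includes the product of NT5E. FAP encodes fibroblast activation protein, a membrane protease that cuts after proline and marks fibroblasts of wounds and tumour stroma. NT5E encodes CD73, a membrane-anchored enzyme that turns extracellular AMP into adenosine. TGFBI and CCDC80 encode secreted matrix proteins, SRGN the core protein of a small proteoglycan best known from the granules of blood cells, FGL2 a fibrinogen-like protein with a membrane-bound and a secreted form, and KLK8 a secreted serine protease of the kallikrein family found in skin and brain.

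RNA was measured on 39 single-colour arrays, 3 for each of 13 cell sources. The ESC sources were the female line C3806 and the male line C3106. The teratoma sources were 8 fibroblast cultures grown out of teratomas, mixed-tissue tumours that arose where these ESCs were injected into immune-compromised mice. Cultures TA38, TB38 and TC38 came from teratomas of line 3806 and carried its genome, and cultures TA31, TB31, TC31, TD31 and TE31 came from line 3106. The skin sources were the fibroblast cultures M032, M088 and M106p1, grown from skin explants of macaques that were parents of the lines. Each ESC line is 1 source. Nothing in the labels says whether mouse cells remained in the teratoma outgrowths, how long the cells were grown, or how the skin donors pair with the lines. The arrays of a source are called biological triplicates in the labels, but nothing says that they came from separate cultures, so p-values measure only the spread between these samples. In bulk RNA, fewer cells of a type and less RNA per cell cannot be told apart.

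The profiles of 3 arrays were those of other sources, and these arrays were left out. The array labelled C3806c had a mean correlation over all probe sets of 0.909 with its own line and 0.996 with teratoma culture TC38. The array labelled M106p1f stood at 0.951 with its own culture and 0.997 with TD31, and the array labelled TB31c at 0.966 with its own and 0.994 with M106p1. Of the 39 arrays, 35 were most like their own source, and the remaining exception, C3806b, was most like the other ESC line. The 36 arrays used comprised 5 of ESCs, 23 of teratoma fibroblasts and 8 of skin fibroblasts. A wide gap between the actin probe sets of the 3' and the 5' end, which accompanies shortened RNA or cDNA, was seen in C3806a. It measured 3.89 log2 units there, and the median was 0.74 over ESC arrays, 0.17 over teratoma arrays and 0.27 over skin arrays. The means of these marker lists followed the cell type labels, but not every marker did. The mean log2 signal of 8 pluripotency markers lay between 11.50 and 11.61 in ESC lines, between 5.22 and 5.97 in teratoma cultures and between 5.04 and 5.13 in skin cultures. The pluripotency marker SOX2 lay at 12.41 to 12.54 in ESC lines and at 4.33 to 4.55 in skin cultures, but at 4.78 to 10.90 in teratoma cultures. The mean over the 8 measured of 11 listed fibroblast markers lay at 7.51 to 7.58 in ESC lines, at 11.60 to 11.92 in teratoma cultures and at 11.71 to 11.73 in skin cultures. Of these 8, TWIST1 averaged 9.10, 9.02 and 9.32 in ESC lines, teratoma and skin cultures, and COL3A1 averaged 7.78, 8.56 and 8.27.

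Signals are log2 values of the array, on which 1 unit is a doubling of brightness, and levels of different probe sets are not compared with each other. For each gene the brightest probe set, the one with the highest mean over the 36 arrays, is described first. Each value of a source is the mean of its arrays, and the ESC lines, teratoma cultures and skin cultures number 2, 8 and 3.

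**Figure D1:**
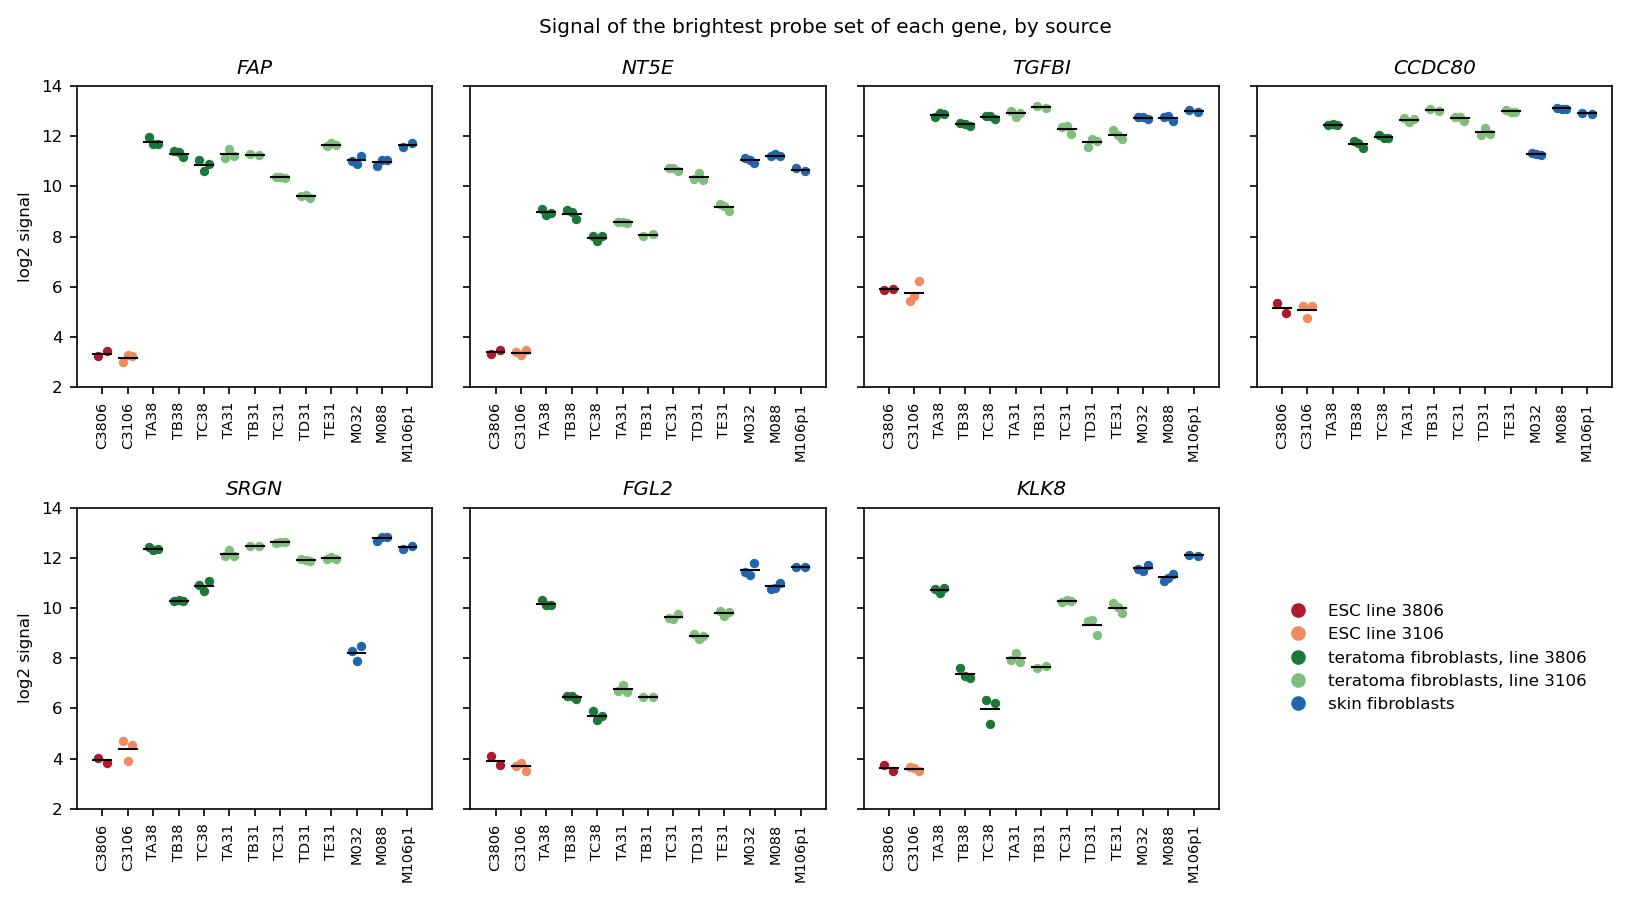
Log2 signal of the brightest probe set of each of the 7 genes (vertical axis) in each array used (points), by source (horizontal axis); bars mark source means. ESC arrays lie at the bottom of every panel, FGL2 and KLK8 spread widely among teratoma cultures, and SRGN is low in skin culture M032.

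On their brightest probe sets the surface enzymes FAP and NT5E were near the lowest signals of the table in every ESC array. Their other probe sets read higher in ESC arrays. FAP MmugDNA.41246.1.S1_at lay at 5.29 to 5.99, NT5E MmugDNA.1580.1.S1_at at 4.23 to 4.72 and NT5E MmuSTS.1117.1.S1_at at 6.41 to 7.34. FAP (MmuSTS.2637.1.S1_at, rhesus chromosome 12) had log2 signals of 3.25 and 3.43 in the C3806 arrays and 3.00, 3.30 and 3.25 in the C3106 arrays, against a low of 9.55, a median of 11.21 and a high of 11.97 in teratoma arrays and 10.80, 11.04 and 11.74 in skin arrays. No ESC array came within 6 log2 units of a fibroblast array. The difference between ESCs and teratoma fibroblasts was -7.81, and that between ESCs and skin fibroblasts, which uses the same ESC values, was -7.96. The lowest fibroblast source was TD31, with a mean of 9.60, and the highest was TA38, with 11.78. NT5E (MmugDNA.43248.1.S1_at, chromosome 4) had log2 signals of 3.32 and 3.47 in the C3806 arrays and 3.38, 3.27 and 3.46 in the C3106 arrays. Its teratoma arrays had a low of 7.81, a median of 8.99 and a high of 10.74, and its skin arrays 10.61, 11.09 and 11.29. The ESC arrays again stood apart, while the teratoma and skin arrays overlapped through TC31, whose mean of 10.69 was just above the 10.66 of M106p1. Differences of ESCs were -5.61 against teratoma and -7.59 against skin fibroblasts.

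The secreted matrix proteins showed the same separation of ESC from fibroblast arrays. TGFBI (MmugDNA.5064.1.S1_at, chromosome 6), whose product binds collagens and integrins and whose expression is induced by TGF-beta, had log2 signals of 5.89 and 5.92 in the C3806 arrays and 5.42, 5.64 and 6.22 in the C3106 arrays. Its teratoma arrays ran between 11.58 and 13.19 with a median of 12.52, and its skin arrays between 12.59 and 13.05 with a median of 12.77. The range of skin arrays fell within that of teratoma arrays, and the ESC differences were -6.73 and -6.99 against teratoma and skin fibroblasts. CCDC80 (MmugDNA.9813.1.S1_at, chromosome 2), whose product binds matrix proteins, had log2 signals of 5.37 and 4.97 in the C3806 arrays and 5.23, 4.76 and 5.23 in the C3106 arrays. Its teratoma arrays had a low of 11.54, a median of 12.47 and a high of 13.10, and its skin arrays 11.24, 12.91 and 13.12. Differences of ESCs were -7.26 against teratoma and -7.31 against skin fibroblasts, and the lowest fibroblast source was the skin culture M032, at 11.28.

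SRGN (MmugDNA.21540.1.S1_at, chromosome 9), the proteoglycan core protein, had log2 signals of 4.03 and 3.83 in the C3806 arrays and 4.71, 3.92 and 4.55 in the C3106 arrays. Its teratoma arrays ran between 10.28 and 12.63 with a median of 12.05, and its skin arrays between 7.88 and 12.84 with a median of 12.41. Every fibroblast array lay above every ESC array, but the 3 arrays of M032, at 8.26, 7.88 and 8.46, were below all other fibroblast arrays. The ESC differences were -7.54 and -6.97 against teratoma and skin fibroblasts. SRGN is also a gene of leukocytes and mast cells. Of 8 leukocyte and macrophage markers measured, of 11 listed, 0 were called between any of the cell types, and of 4 mast cell markers 1 was, KIT, which was higher in ESCs than in skin fibroblasts. In that comparison 10.2% of the brightest probe sets of all genes were called higher and 9.68% lower. Between ESCs and teratoma fibroblasts 6.24% were called higher and 8.13% lower, and between teratoma and skin fibroblasts 0.552% and 0.425%. With so few markers, counts of 0 or 1 say little beside these shares. The mean of the leukocyte and macrophage markers lay at 6.27 to 6.41 in ESC lines, 6.15 to 6.44 in teratoma cultures and 6.13 to 6.16 in skin cultures, and that of the mast cell markers at 5.92 to 6.26 in ESC lines, 5.61 to 6.39 in teratoma cultures and 5.35 to 5.52 in skin cultures. PTPRC, which all leukocytes carry, lay between 5.73 and 6.31 in every source. CD68, a macrophage marker that other cells also express, averaged 7.37 in teratoma and 6.09 in skin cultures (limma adjusted p = 0.0527). KIT averaged 8.27 in teratoma and 5.65 in skin cultures (limma adjusted p = 0.0581). The part of leukocytes in the SRGN signal was not tested.

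FGL2 and KLK8 had the widest spread among fibroblasts. FGL2 (MmugDNA.34119.1.S1_at, chromosome 3) had log2 signals of 4.10 and 3.73 in the C3806 arrays and 3.71, 3.84 and 3.52 in the C3106 arrays, against a low of 5.53, a median of 8.76 and a high of 10.31 in teratoma arrays and 10.77, 11.36 and 11.79 in skin arrays. KLK8 (MmugDNA.32826.1.S1_at, chromosome 19) had 3.76 and 3.49 in the C3806 arrays and 3.66, 3.63 and 3.52 in the C3106 arrays, with 5.39, 8.92 and 10.80 in teratoma arrays and 11.09, 11.52 and 12.11 in skin arrays. On these brightest probe sets the 3 groups of arrays did not overlap: ESC arrays were lowest, teratoma arrays in the middle and skin arrays highest. The share of all probe sets with such a separation of arrays was not counted. By source means, both ESC lines lay below all 8 teratoma cultures for 16.3% of all probe sets. All 8 teratoma means lay below all 3 skin means for 2.35%. Levels in ESCs and in skin weighed in the choice of FGL2 and KLK8, so this order partly describes the choice. On the other FGL2 probe set the groups overlapped. Its teratoma arrays ran between 4.65 and 7.51, its ESC arrays reached 5.38 and its skin arrays began at 7.02. On the other KLK8 probe sets ESC arrays were highest. The ESC differences were -4.07 and -7.53 for FGL2 and -4.92 and -8.02 for KLK8, against teratoma and skin fibroblasts.

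Over the 7 brightest probe sets the median difference was -6.73 between ESCs and teratoma fibroblasts and -7.53 between ESCs and skin fibroblasts, where the medians over all probe sets were 0.03 and 0.03. In all 7, both ESC means lay below every teratoma and every skin mean. Over the 16 probe sets this held for 13 against teratoma and 14 against skin cultures, where it held for 16.3% and 23% of all probe sets. As the genes were picked on these differences, the counts describe the choice. With all 39 arrays under their labels the medians were -5.57 and -6.48, and without C3806a they were -6.73 and -7.56.

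**Figure D2:**
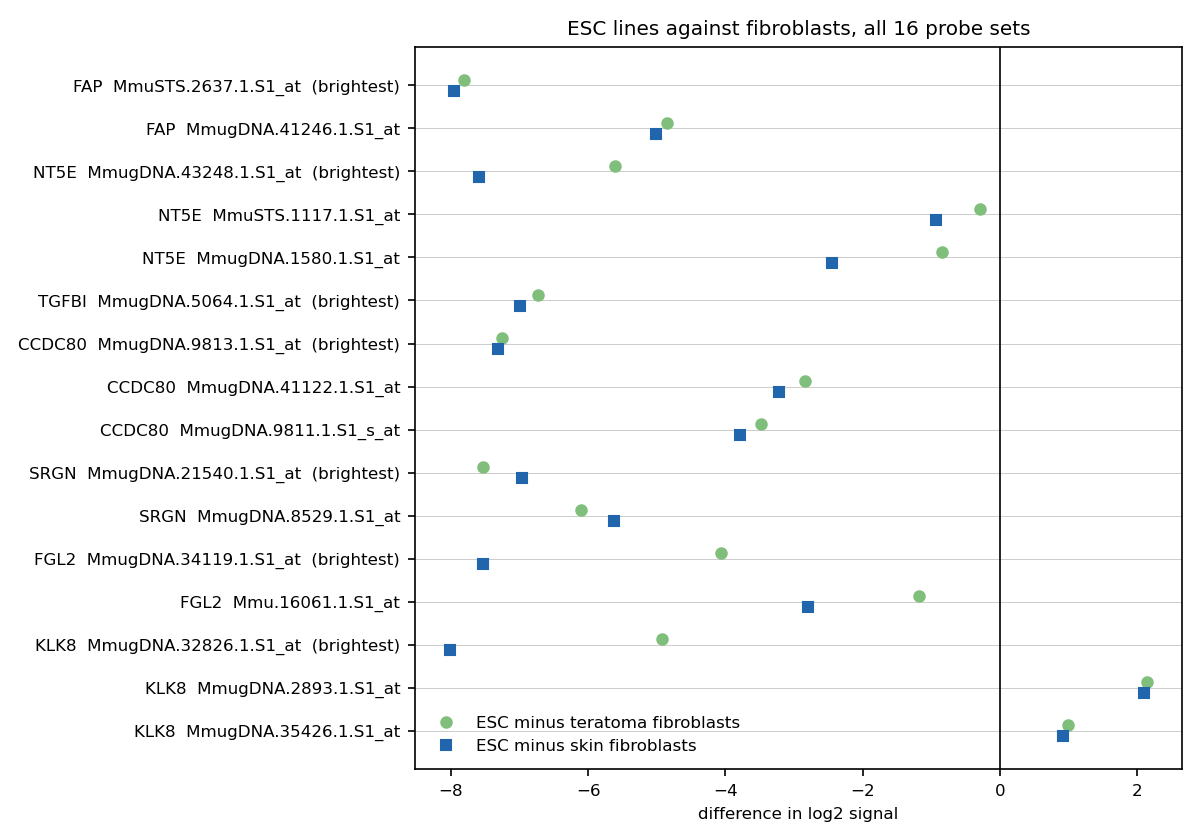
Difference in log2 signal between ESCs and teratoma fibroblasts (circles) and between ESCs and skin fibroblasts (squares) for each of the 16 probe sets, which share the ESC values. Of these, 2 KLK8 probe sets lie right of 0, and the brightest probe sets lie furthest left for each gene.

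The probe sets of a gene did not give the same size of difference. The second FAP probe set (MmugDNA.41246.1.S1_at) differed by -4.85 and -5.01 and that of SRGN (MmugDNA.8529.1.S1_at) by -6.10 and -5.62 between ESCs and teratoma or skin fibroblasts. Both followed their brightest probe set closely, with r = 0.995 over the 11 fibroblast sources, which share the RNA of each array. The other probe sets of CCDC80 differed by -2.85 and -3.48 against teratoma fibroblasts and that of FGL2 by -1.18, with r to the brightest of 0.978, 0.962 and 0.983. For NT5E the other probe sets differed by only -0.85 (MmugDNA.1580.1.S1_at) and -0.30 (MmuSTS.1117.1.S1_at) against teratoma fibroblasts and by -2.45 and -0.93 against skin fibroblasts. Over the 11 fibroblast sources their r to the brightest NT5E probe set was 0.931 and 0.588. The other KLK8 probe sets ran the opposite way. MmugDNA.2893.1.S1_at averaged 8.14 in ESC lines, against 5.99 in teratoma and 6.05 in skin cultures, and MmugDNA.35426.1.S1_at averaged 8.13, against 7.14 and 7.22. Over the 11 fibroblast sources the first lay between 5.89 and 6.09 and the second between 7.05 and 7.28, with r to the brightest of 0.044 and 0.535. The direction of the KLK8 difference between ESCs and fibroblasts thus depends on the probe set. The stretch of transcript that each probe set reads was not analysed here.

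The teratoma fibroblasts, which carry the ESC lines' genomes, were next compared with skin fibroblasts of the parent animals. Source means were fitted with limma. The fitted difference gives the teratoma cultures of each line equal weight as a class, so it differs from the difference of the plain means over 8 and 3 cultures. A probe set was called when its adjusted p over all 52024 probe sets was under 0.05 and its log2 difference at least 1. NT5E, FGL2 and KLK8 were lower in teratoma fibroblasts on average, by an amount that passed the test for 1 NT5E probe set alone, and FAP, TGFBI, CCDC80 and SRGN were not called. That probe set was MmugDNA.1580.1.S1_at, at 5.34 ± 0.43 (SD, n = 8) in teratoma cultures and 6.90 ± 0.36 (SD, n = 3) in skin cultures, a difference of -1.60 (SE 0.25, limma adjusted p = 0.0183). It was the only call among the 16 probe sets, and 0.288% of all probe sets were called lower and 0.361% higher. Skin levels weighed in the choice of NT5E, FGL2 and KLK8, so their p-values here are not independent of that choice. MmuSTS.1117.1.S1_at also differed, by -0.63 (limma adjusted p = 0.0302), under the fold limit. With all 39 arrays no probe set of the 7 genes was called.

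The brightest probe set of NT5E averaged 9.09 ± 0.99 (SD, n = 8) in teratoma and 10.98 ± 0.29 (SD, n = 3) in skin cultures, a fitted difference of -1.99 with a 95% interval of -3.15 to -0.82 (limma adjusted p = 0.0799). FGL2 averaged 7.98 ± 1.81 in teratoma and 11.33 ± 0.42 in skin cultures, a fitted difference of -3.46 (-5.69 to -1.23, limma adjusted p = 0.103). KLK8 averaged 8.66 ± 1.67 in teratoma and 11.63 ± 0.44 in skin cultures, a fitted difference of -3.10 (-5.12 to -1.08, limma adjusted p = 0.105). These intervals lay below 0, but the differences did not pass the adjustment over all probe sets. All 8 teratoma means were below all 3 skin means for 5 of the 16 probe sets, as for 2.35% of all probe sets. The brightest probe sets of FGL2 and KLK8 were among these 5. TA38 was the teratoma culture nearest to skin for both genes, so leaving it out was bound to enlarge the differences. Without TA38 they were -4.14 for FGL2 (limma adjusted p = 0.0331) and -3.77 for KLK8 (limma adjusted p = 0.025), and 4 member probe sets were called. In 10 of 11 runs with 1 culture left out, FGL2 was not called, and the same held for KLK8. The limma adjusted p reached 0.265 for FGL2 and 0.281 for KLK8. These runs called 0.29% to 1.5% of all probe sets. With arrays as units and the source as a random block, 5 member probe sets were called. That setting called 2.71% of all probe sets, against 0.65% in the main fit.

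**Figure D3:**
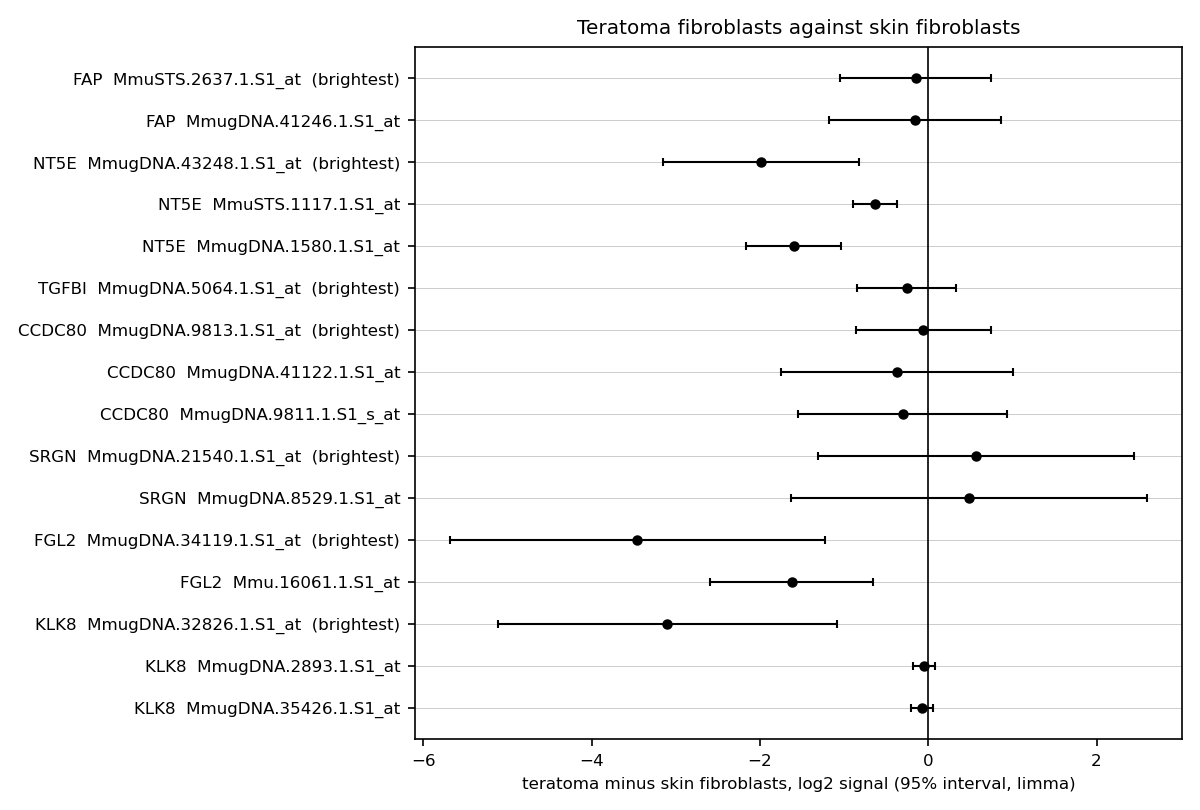
Difference in log2 signal between teratoma and skin fibroblasts (points) with 95% limma intervals (bars) for the 16 probe sets. Intervals lie left of 0 for all 3 NT5E and both FGL2 probe sets and for the brightest KLK8 probe set, and only NT5E MmugDNA.1580.1.S1_at was called.

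FAP averaged 11.01 ± 0.72 in teratoma and 11.22 ± 0.38 in skin cultures, with an interval of the difference of -1.04 to 0.75 (limma adjusted p = 0.917). TGFBI averaged 12.54 ± 0.48 in teratoma and 12.82 ± 0.17 in skin cultures, with an interval of -0.85 to 0.33 (limma adjusted p = 0.717). CCDC80 averaged 12.46 ± 0.49 in teratoma and 12.43 ± 1.00 in skin cultures, with a fitted difference of -0.06 and an interval of -0.86 to 0.75 (limma adjusted p = 0.969). On these brightest probe sets the intervals of FAP, TGFBI and CCDC80 stayed within about 1 log2 unit of 0. The other CCDC80 probe sets had wider ones, -1.75 to 1.00 for MmugDNA.41122.1.S1_at and -1.55 to 0.94 for MmugDNA.9811.1.S1_s_at. SRGN averaged 11.83 ± 0.82 in teratoma and 11.13 ± 2.54 in skin cultures, and its wide interval of -1.31 to 2.45 rested on M032 (limma adjusted p = 0.821). Without M032 the SRGN difference was -0.89, against 0.57 with it.

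The fibroblasts of the ESC lines' teratomas were then compared with each other. In the contrast of 3806 with 3106 teratoma fibroblasts none of the 16 probe sets was called, all had a limma adjusted p of 1, and none had an unadjusted p under 0.05. Only 14 of all probe sets, or 0.0269%, were called here in either direction. The largest difference of a brightest probe set was that of SRGN, with means of 11.18 in the 3806 and 12.22 in the 3106 cultures and an interval of -3.05 to 0.97. KLK8 averaged 8.02 in the 3806 and 9.04 in the 3106 cultures, with an interval of -3.17 to 1.14, and FGL2 averaged 7.45 in the 3806 and 8.30 in the 3106 cultures, with an interval of -3.24 to 1.53. The FGL2 interval spans changes of several fold in either direction, and those of SRGN and KLK8 reach differences of about -3 log2 units. The lowest unadjusted p was 0.0564, for the CCDC80 probe set MmugDNA.41122.1.S1_at, at -1.42 (limma adjusted p = 1).

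Cultures of one line differed from each other. An F test in limma, with the arrays of a culture as its error, called a probe set when the adjusted p was under 0.05 and the culture means spanned at least 1 log2 unit. Among the 5 cultures of line 3106, 11 of the 16 probe sets were called, and 8.17% of all probe sets. Of the 7 brightest probe sets 5 were called, and 11.5% of the brightest probe sets of all genes. FGL2 spanned 3.35 log2 units, with means of 9.80 in TE31, 9.64 in TC31, 8.86 in TD31, 6.76 in TA31 and 6.45 in TB31 (limma adjusted p = 3.06e-20). KLK8 spanned 2.65, with 10.28 in TC31, 10.00 in TE31, 9.32 in TD31, 7.99 in TA31 and 7.63 in TB31 (limma adjusted p = 2.56e-13). TC31, TD31 and TE31 were thus high and TA31 and TB31 low for both genes, and the arrays of these sets of cultures did not overlap. NT5E spanned 2.62, with 10.69 in TC31 and 10.37 in TD31 at the top and 8.07 in TB31 at the bottom (limma adjusted p = 1.52e-18).

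FAP spanned 2.06 log2 units among the 3106 cultures, with TE31 at 11.66, TA31 at 11.28, TB31 at 11.26, TC31 at 10.37 and TD31 at 9.60 (limma adjusted p = 1.46e-14). TGFBI spanned 1.40, with TB31 at 13.16, TA31 at 12.91, TC31 at 12.30, TE31 at 12.06 and TD31 at 11.76 (limma adjusted p = 4.9e-09). TD31 was thus the lowest of the 5 for FAP and TGFBI. CCDC80 and SRGN differed among these cultures too, but by 0.91 and 0.71 log2 units, under the limit (limma adjusted p = 7.35e-07 and 0.00062). The mean of skeletal muscle markers set the same cultures apart in another way. Over the 5 measured of 8 listed markers it was 8.36 in TB31, 7.96 in TD31, 5.97 in TC31, 5.41 in TE31 and 5.33 in TA31. MYH3, MYH8 and MYOD1 spanned 7.74, 5.19 and 2.30 log2 units and were called, where 11.5% of brightest probe sets were. CKM and TNNT1 spanned 0.18 and 0.30 and were not called. TB31 and TD31, both high in the mean of these 5 markers, had the highest and the lowest TGFBI signal, and their FGL2 signals were 6.45 and 8.86. The mean of the 4 measured of 5 listed smooth muscle markers was 10.82 in TE31, 10.54 in TA31, 10.50 in TB31, 9.88 in TC31 and 9.43 in TD31. That is the order of the FAP means, in which the arrays of TA31 and TB31 overlapped. The match did not hold among the 3806 cultures. There the smooth muscle mean was 10.47 in TA38, 10.13 in TC38 and 10.04 in TB38, and FAP 11.78, 10.84 and 11.31. The part of muscle cells in the spread was not tested.

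Among the 3 cultures of line 3806, 7 of the 16 probe sets were called, and 3.71% of all probe sets. Of the 7 brightest probe sets 4 were called, and 5.07% of the brightest probe sets of all genes. FGL2 spanned 4.46 log2 units, with 10.17 in TA38, 6.46 in TB38 and 5.71 in TC38 (limma adjusted p = 1.65e-21). KLK8 spanned 4.75 in the same order, with 10.73 in TA38, 7.37 in TB38 and 5.98 in TC38 (limma adjusted p = 3.27e-18). Within one ESC line, TA38 was thus 22.1-fold brighter than TC38 for FGL2 and 26.9-fold for KLK8. SRGN spanned 2.06, with 12.36 in TA38, 10.88 in TC38 and 10.30 in TB38 (limma adjusted p = 4.71e-12). NT5E spanned 1.02, with 8.97 in TA38, 8.92 in TB38 and 7.95 in TC38 (limma adjusted p = 1.95e-09), and it fell under the limit of 1 without array TA38a or TC38b, at 0.97 and 0.95. FAP, at 0.94, passed the limit only without TC38a, at 1.05. TA38 was thus the brightest of the 3 cultures for SRGN, FGL2 and KLK8, while for NT5E it lay beside TB38. The mean of the skeletal muscle markers was 7.21 in TA38, 6.90 in TB38 and 5.70 in TC38, the order of FGL2 and KLK8. The match did not hold among the 3106 cultures. There TB31 had the highest mean of these markers, 8.36, and the lowest FGL2 and KLK8 signals, 6.45 and 7.63. The part of muscle cells in these spans was not tested.

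Among the 3 skin cultures 5 of the 16 probe sets were called, all of CCDC80 or SRGN, and 6.26% of all probe sets. Of the 7 brightest probe sets 2 were called, and 8.74% of the brightest of all genes. SRGN spanned 4.57 log2 units, with 12.77 in M088, 12.41 in M106p1 and 8.20 in M032 (limma adjusted p = 9.92e-21), a 23.8-fold span. Its other probe set spanned 5.21. CCDC80 spanned 1.83, with 13.11 in M088, 12.91 in M106p1 and 11.28 in M032 (limma adjusted p = 3.64e-14). M032 was thus low in SRGN and CCDC80, while it stood at 11.51 in FGL2 and 11.59 in KLK8, between the other skin cultures. The mean of smooth muscle markers also varied between these cultures. Over the 4 measured of 5 listed markers it was 11.64 in M106p1, 11.35 in M088 and 10.24 in M032. CNN1 ran from 9.46 to 11.28 over the skin cultures, MYH11 from 8.48 to 11.16 and LMOD1 from 9.56 to 10.47, but TAGLN only from 13.48 to 13.64. The part of muscle cells in the span was not tested.

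The F tests depended on the arrays left out. With all 39 arrays, 4 probe sets were called among the 3106 cultures and 4 among the 3806 cultures. Of all probe sets, 2.33% were then called among the 3806 cultures, against 3.71% as reported. Among the 3106 cultures the share of all probe sets, 8.17% as reported, ran from 5.97% to 11.6% over the alternatives, this one among them. FGL2 was still called among the 3106 cultures (limma adjusted p = 0.0219), and FAP, NT5E, TGFBI and KLK8 were not, at limma adjusted p-values of 0.417, 0.0697, 0.684 and 0.117. The spans of these 4 genes were then 2.06, 2.13, 1.36 and 2.29 log2 units. FGL2 and KLK8 were still called among the 3806 cultures (limma adjusted p = 3e-04 and 8.93e-05), and NT5E and SRGN were not, at 0.531 and 0.298 with spans of 1.02 and 2.06. Among skin cultures SRGN was still called (limma adjusted p = 0.000653) and the brightest CCDC80 probe set was not (limma adjusted p = 0.35).

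The ESC lines did not differ by the call rule in any of the 16 probe sets, where 1.34% of all probe sets were called between C3806 and C3106. The FAP probe set MmugDNA.41246.1.S1_at was 0.52 log2 units higher in C3806 than in C3106 (limma adjusted p = 0.00126) and the KLK8 probe set MmugDNA.35426.1.S1_at differed by -0.57 (limma adjusted p = 0.00763), both under the fold limit. With 1 source for each line, this test sets the difference against the spread between arrays only.

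In the order of the 13 sources, the ESC lines were last for every brightest probe set. The largest step between neighbouring sources lay between the ESC lines and the lowest fibroblast source for 6 of the 7 genes, from 2.35 log2 units for KLK8 to 6.26 for FAP. For FGL2 the largest step, 2.10, lay within the teratoma cultures, between TD31 and TA31. The ranges of arrays overlapped in 8 of 12 neighbouring pairs for TGFBI, 7 for FAP, 5 for NT5E, 5 for SRGN, 4 for CCDC80, 4 for FGL2 and 2 for KLK8, so the order of such neighbours is not resolved. M088 was highest for NT5E, SRGN and CCDC80, M106p1 for FGL2 and KLK8, TB31 for TGFBI and TA38 for FAP.

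The genes shared parts of this order. Over the 8 teratoma cultures FGL2 and KLK8 had r = 0.978, and over the 11 fibroblast sources r = 0.988. CCDC80 and SRGN had r = 0.837 and 0.902 over the same sets of sources. NT5E had r = 0.696 with FGL2 and 0.69 with KLK8 over teratoma cultures, and 0.84 and 0.829 over fibroblast sources. FAP and TGFBI had r = 0.572 and 0.601, while NT5E and TGFBI had r = -0.774 over teratoma cultures and -0.279 over fibroblast sources. SRGN and KLK8 had r = 0.66 over teratoma cultures and 0.066 over fibroblast sources, which include M032. These 7 pairs were picked from 21, and the points of a pair share RNA, array and source, so the coefficients are descriptions.

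**Figure D4:**
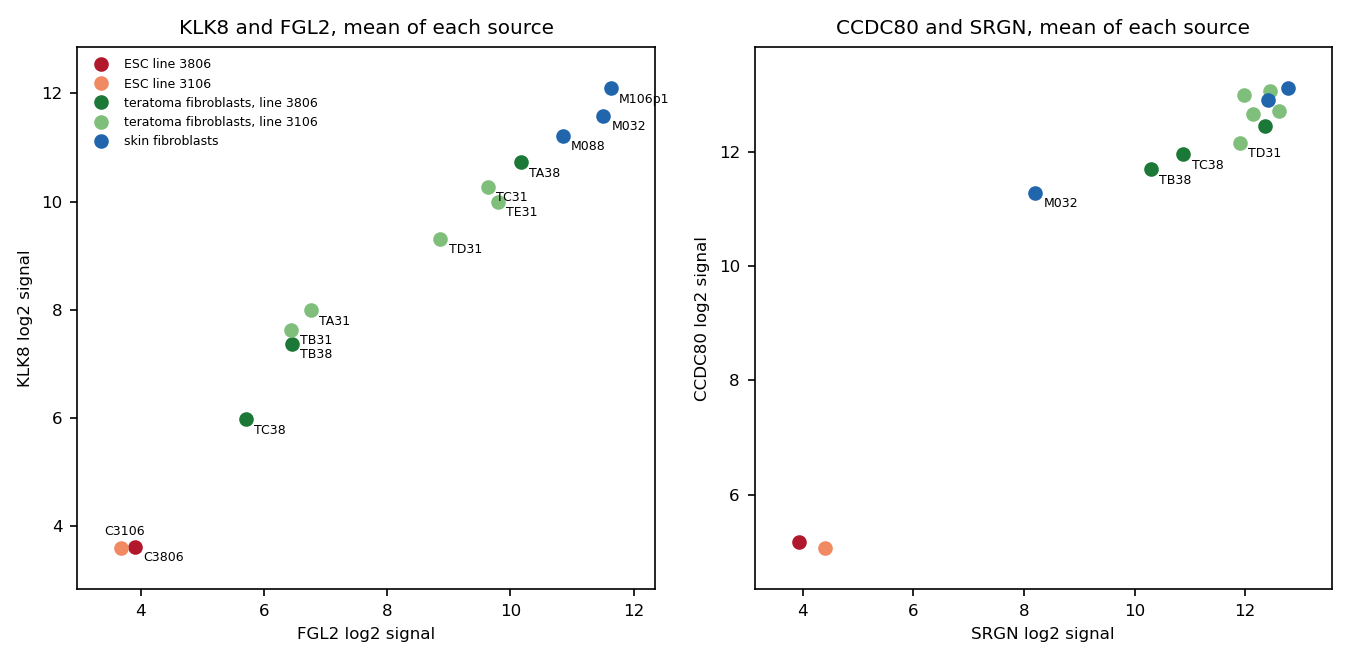
Source means of KLK8 against FGL2 (left) and of CCDC80 against SRGN (right), both axes in log2 signal, coloured by cell type. On the left the fibroblast sources fall along one line, with TC38 lowest and M106p1 highest. On the right 4 sources with lower SRGN are labelled, among them M032 at 8.20.

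Outside the 7 genes, the genes with the most similar pattern over all 13 sources were sought among 894 genes whose source means varied with an SD of at least 1. They were VGLL3, DKK1 and RUNX1 for FAP (r = 0.996, 0.991 and 0.991), PBXIP1, STX11 and ANTXR2 for NT5E (0.985, 0.983 and 0.972), and DKK1, MBD2 and ARID5B for TGFBI (0.992, 0.989 and 0.989). EMP1, IFI16 and ARID5B were most like CCDC80 (0.989, 0.989 and 0.988), and NEURL4, EFEMP1 and MTRES1 were most like SRGN (0.967, 0.96 and 0.959). LOC713392, RGCC and ADIRF were most like FGL2 (0.975, 0.943 and 0.935), and CMAH, LOC713392 and CAMK2N1 most like KLK8 (0.968, 0.967 and 0.96). The step between ESCs and fibroblasts enters each of these coefficients. Over the 11 fibroblast sources, where 411 genes varied enough, other genes led. SULF1, which encodes a secreted sulfatase of heparan sulfate, was first for both SRGN (r = 0.935) and CCDC80 (0.86). CMAH, which encodes the enzyme that makes the sialic acid Neu5Gc, and CAMK2N1, an inhibitor of the kinase CaMKII, were the first and second for both FGL2 (0.919 and 0.893) and KLK8 (0.946 and 0.905). EDN1, which encodes endothelin, led for FAP (0.906), ADIRF for NT5E (0.885) and CA12, a membrane carbonic anhydrase, for TGFBI (0.834).

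Genes of the pathways around the 7 members were counted from lists chosen with earlier results of these data in view, by the brightest probe set of each gene. Of other surface genes used for mesenchymal stromal cells, 16 of 18 listed were measured. Each ESC line is a class of 1 source in the fit, so the error of these and the following calls comes from the fibroblast cultures and leaves out the spread between ESC lines. In ESCs 7 fell and 0 rose against teratoma fibroblasts, where 8.13% of brightest probe sets fell and 6.24% rose. Against skin fibroblasts 7 fell and 0 rose, where 9.68% fell and 10.2% rose. The list's median differences were -1.70 and -1.58. CDH11, a cadherin of mesenchymal cells, differed by -3.86 and -3.99 between ESCs and teratoma or skin fibroblasts, and ENG, a TGF-beta co-receptor, by -2.19 and -2.66. ITGB1, the shared beta subunit of many integrins, differed by -2.08 and -2.27, with the ESC lines far apart, at 8.34 and 10.60. CD44, the hyaluronan receptor, differed by -1.53 and -1.98. VCAM1 (-2.79), an adhesion molecule, the protease MME (-2.31) and S1PR3 (-1.88), a receptor of sphingosine phosphate, were called against teratoma fibroblasts, and LRRC15 (-3.79), MCAM (-1.81) and CSPG4 (-1.79) against skin fibroblasts. Between teratoma and skin fibroblasts 0 of the 16 genes were called, where 0.552% of brightest probe sets were called higher and 0.425% lower. MME had the highest limma adjusted p, 0.0347, of the list genes given here and below as called. THY1, the marker CD90, was not called, at 10.24 in ESC lines, 10.07 in teratoma and 10.15 in skin cultures. Among the 3106 cultures 9 of the 16 were called, where 11.5% of brightest probe sets were, with NGFR, VCAM1 and MME spanning 4.09, 3.44 and 3.18 log2 units.

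**Figure D5:**
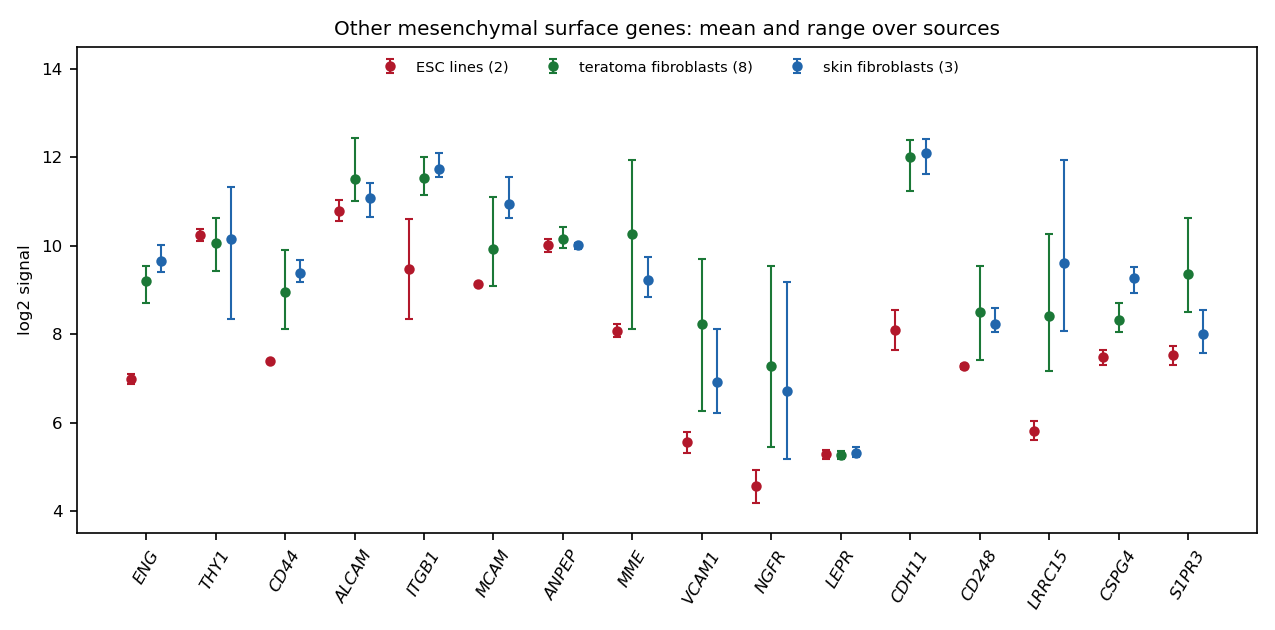
Mean log2 signal (points) and range over sources (bars) of 16 other mesenchymal surface genes in ESC lines, teratoma fibroblasts and skin fibroblasts. CDH11 and ENG show ESC ranges clear of both fibroblast kinds, and THY1, ANPEP and LEPR lie at like levels in all 3.

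Of the relatives of FAP, members of the prolyl peptidase families, 5 of 7 were measured. None was called in a comparison of cell types or among the 3106 cultures, with a median difference of 0.02 between ESCs and teratoma fibroblasts. Of brightest probe sets, 0.552% were called higher and 0.425% lower between teratoma and skin fibroblasts, and 11.5% were called among the 3106 cultures. The shares for ESCs are those given with the next list. Of genes that handle extracellular ATP and adenosine, the substrate chain and product of NT5E, 14 of 18 were measured. In ESCs 2 rose and 1 fell against teratoma fibroblasts, where 6.24% of brightest probe sets rose and 8.13% fell. Against skin fibroblasts 1 rose and 1 fell, where 10.2% rose and 9.68% fell. ADA, which turns adenosine into inosine, rose by 1.90 and 1.16, and SLC29A1, an adenosine transporter, rose by 1.12 against teratoma fibroblasts. The adenosine receptor gene ADORA2B fell by 1.18 against teratoma fibroblasts, and ENTPD1, the ectoenzyme CD39 that yields AMP, fell by 1.53 against skin fibroblasts. The list's median differences were -0.07 and -0.06.

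Of genes of TGF-beta signalling and binding partners of the TGFBI protein, 16 of 20 were measured. In ESCs 6 fell against teratoma and 7 against skin fibroblasts, while 0 rose in either comparison. Of brightest probe sets, 8.13% and 9.68% fell in these comparisons, and 6.24% and 10.2% rose. LTBP2 and LTBP1, which encode latent TGF-beta binding proteins, differed by -3.30 and -2.17 against teratoma fibroblasts and by -4.32 and -3.03 against skin fibroblasts. The ligand TGFB3 differed by -2.58 against teratoma and -2.59 against skin fibroblasts, and the ligand TGFB1 by -1.72 and -1.23. The signal transducer SMAD3 and the target CCN2 differed by -1.29 and -1.30 against teratoma and by -1.37 and -1.38 against skin fibroblasts, and the inhibitor SMAD7 was called, at the fold limit, against skin fibroblasts. In the comparison of teratoma with skin fibroblasts, 0.425% of brightest probe sets were called lower and 0.552% higher. LTBP2 was also the only gene of the 8 lists called between teratoma and skin fibroblasts, at -1.02 (limma adjusted p = 0.025). Its means were 10.29 in teratoma and 11.31 in skin cultures.

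Both relatives of CCDC80 were called. In ESCs SRPX differed by -2.37 against teratoma and -2.30 against skin fibroblasts, and SRPX2 by -3.43 and -3.66. Of genes that build the chondroitin sulfate chains that SRGN can carry, 11 of 17 were measured, and 3 fell in ESCs against each kind of fibroblast: CSGALNACT2 (-2.14 and -2.98), CHSY3 (-2.63 and -2.49) and UST (-2.01 and -2.29). CHST15 rose by 1.87 against skin fibroblasts. Of brightest probe sets, 8.13% fell against teratoma and 9.68% against skin fibroblasts, and 10.2% rose against skin fibroblasts. The list's median differences were -0.31 and -0.43.

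Of genes with a fibrinogen-like domain, as FGL2 has, 14 of 19 were measured, with median differences of 0.05 and -0.01. In ESCs 2 fell and 1 rose against teratoma fibroblasts, where 8.13% of brightest probe sets fell and 6.24% rose. Against skin fibroblasts 3 fell and 1 rose, where 9.68% fell and 10.2% rose. TNC, a matrix glycoprotein of wounds and tumours, differed by -5.37 against teratoma and -6.06 against skin fibroblasts, the vascular ligand ANGPT1 by -2.26 and -2.77, and ANGPTL2 by -2.28 against skin fibroblasts. TNN, a tenascin like TNC, rose by 1.67 and 1.97. Of other kallikreins with their inhibitors and a receptor, 11 of 17 were measured, and 1 gene was called, against the same shares. F2RL1, the protease-activated receptor that several kallikreins can cleave, rose in ESCs by 2.42 against teratoma fibroblasts (limma adjusted p = 0.0209) and by 3.95 against skin fibroblasts (limma adjusted p = 0.00289). None of the other measured kallikreins, KLK3, KLK4, KLK5, KLK6, KLK7, KLK10, KLK12 and KLK15, was called between cell types, and KLK7 had means of 7.18 in ESC lines, 5.35 in teratoma and 5.59 in skin cultures.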

How the data were processed

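The deposited table holds log2 signals, 1 per probe set and array, which the authors made with GCOS and RMA per the submitters' processing notes; versions and settings: not given in the sources used here. RMA corrects background, makes the distributions of arrays alike and summarises probes, so it compresses differences near the lowest signals. Values ran from 2.11 to 14.18, and array medians from 6.25 to 6.48. Arrays have no depth, and the number of sources limits precision. Of 52865 probe sets, 158 controls and 683 viral ones were left out. Names came from the platform's annotation, updated by gene identifier through the RefSeq table, which also gave chromosomes. Of the rest, 24956 named 1 gene, 361 several and 26707 none. Tests used limma 3.58.1 in R 4.3.3, two-sided with Benjamini-Hochberg adjustment over 52024 probe sets. Cell types were compared on 13 source means in 5 classes (8 residual degrees of freedom), cultures and ESC lines on 36 arrays (23 degrees of freedom). The limma steps were tested on simulated data.

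The members and lists were chosen with earlier results of these data known. Every probe set of the 7 genes was reported. The 3 genes with the highest r to each were taken, and in each list up to 4 with the largest difference plus any called. Alternatives covered all 39 arrays, leaving out C3806a, each culture or each array, 1 probe set per gene, a dim filter at 5, median centring, trended variance, a replicate block, other classes, a random block and exact permutation. No sequence or coordinate was used.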

Additional observations from a re-analysis of the deposited data

Results flagged for a closer look

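The arrays left out of the fits carried signals of these genes that lay over 2 log2 units away from the other arrays under the same label. They are given here because they lie in data that the comparisons do not use. In the array labelled C3806c the log2 signal was 10.77 for FAP, 7.96 for NT5E, 12.86 for TGFBI, 11.97 for CCDC80, 10.90 for SRGN and 6.21 for KLK8. The other C3806 arrays averaged 3.34, 3.40, 5.91, 5.17, 3.93 and 3.62 for these genes in the same order. In the array labelled TB31c the signal was 10.72 for NT5E, 11.56 for FGL2 and 11.81 for KLK8, where the other TB31 arrays averaged 8.07, 6.45 and 7.63. For FGL2 and KLK8 these values of TB31c lay within the range of the skin arrays. The array labelled M106p1f went the other way, with 9.49 for FAP, 8.87 for FGL2 and 9.54 for KLK8, where the other M106p1 arrays averaged 11.65, 11.63 and 12.09. No culture stood apart by Dixon's test among the 5 cultures of line 3106 or among all 8 teratoma cultures in any of the 16 probe sets.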

How the results depend on the processing

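Between teratoma and skin fibroblasts the count of called probe sets of the 7 genes, 1 as reported, was 0 with all 39 arrays, 0 with 1 probe set per gene and 5 with the source as a random block, and between 0 and 4 with 1 culture left out. It was 0 without M032 and 4 without TA38. The share of all probe sets called, 0.65%, was 0.123%, 1.2% and 2.71% under the first 3 settings, and 0.29% to 1.5% with 1 culture left out. Between 3806 and 3106 teratoma fibroblasts the share of 0.0269% was 0.0425% with 1 probe set per gene, 0.0154% with median centring and 0.311% with the random block, and 0.00384% to 0.0692% with 1 culture left out, and no member probe set was called under any setting. Among the 3106 cultures the count of 11 was 4 with all 39 arrays and 5 with 1 probe set per gene, and 11 without any single array. Among the 3806 cultures the count of 7 was 4 under each of these settings, and 6 to 8 without a single array, and the share of 3.71% was 2.33% with all 39 arrays. Among skin cultures the count of 5 was 2 with 1 probe set per gene, and the share of 6.26% was 3.71% with all 39 arrays. Between ESC lines the share of 1.34% ran from 1.08% to 3.7% without a single array, and it was 3.7% without C3806b. With 1 probe set per gene, 7 probe sets could be called in place of 16, and with all 39 arrays the 3 arrays with profiles of other sources enter the error. Causes of the other moves were not tested. The replicate block, with array letters as blocks, moved none of these counts by over 1.5 times. Arrays with the same letter had a median r of 0.03 between their deviations from the source means, against -0.02 for different letters, so the letters do not pair the samples. No called value changed direction. An exact permutation test over the 11 fibroblast cultures was also run, and its p-values are not given because levels in these cultures weighed in the choice of the genes. The same limit applies to the limma p-values between teratoma and skin fibroblasts given above.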
